A study of Mus musculus with 12 samples.

Results

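The D cyclins, the kinases that they activate and the inhibitors of those kinases were examined in somatosensory cortex of mouse pups on postnatal day 7. The set comprised 9 genes chosen by symbol: the 3 D cyclins Ccnd1, Ccnd2 and Ccnd3, the 2 kinases Cdk4 and Cdk6, the 2 Cip/Kip inhibitors Cdkn1b and Cdkn1c, and the 2 INK4 inhibitors Cdkn2c and Cdkn2d. They were 9 of 24452 gene symbols, with 13 of 35840 RefSeq transcripts. All 9 passed the filter on low counts, as did 14739 symbols in all.

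The mice were male pups on a C57BL/6 background, born to parents heterozygous for the Trp53tm1Tyj allele, a targeted disruption of the p53 gene carried in every cell. Wild-type (WT) and homozygous p53 knockout (KO) offspring each received intraperitoneal injections of saline or ethanol, and cortex was taken 8 h after the second injection. This gave 4 groups of 3 libraries, named WT saline, WT ethanol, KO saline and KO ethanol, and each library is named here by its group and library number. Some cortices were dissected by laser and others by hole punch, and the sources used here do not say which library came from which.

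D-type cyclins are the regulatory subunits of Cdk4 and Cdk6, and the active complexes phosphorylate the retinoblastoma protein so that a cell can leave the G1 phase of the cell cycle. INK4 proteins such as p18 (Cdkn2c) and p19 (Cdkn2d) bind the kinases and keep cyclin D off, whereas the Cip/Kip proteins p27 (Cdkn1b) and p57 (Cdkn1c) bind assembled cyclin-kinase complexes. In the postnatal cortex most neurons have stopped dividing, glial progenitors still divide, and INK4 and Cip/Kip inhibitors are known for keeping neurons out of the cycle.

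Total counts ranged from 719735 in KO ethanol 12 to 17066392 in KO saline 8. The 2 shallowest libraries, KO ethanol 12 and WT saline 3 (1953154 counts), were also the 2 whose sample names open with the letter L, and the meaning of that letter is not given in the sources used here. Levels are given as CPM, counts scaled to the library's total, after TMM scaling, a correction for composition whose factor ranged from 0.564 for WT saline 1 to 1.23 for KO ethanol 10. Trp53 itself was counted at 3.67 to 26.2 CPM in WT saline, 7.22 to 20.0 CPM in WT ethanol, 11.1 to 27.6 CPM in KO saline and 23.4 to 28.7 CPM in KO ethanol. The gene total covers sequence outside the disrupted part and so does not check the genotype. Transcript NM_001127233 took 48.3% to 70.6% of Trp53 counts in 5 KO libraries and 7.01% to 23.1% in the WT libraries. KO ethanol 12 stood at 7.01%, on only 14 Trp53 counts, and 4 libraries (WT saline 1, WT saline 3, WT ethanol 5 and KO ethanol 12) carried that same division. Summed counts of 7 neuronal markers were 4402 to 6268 CPM in WT saline and 2278 to 3376 CPM in WT ethanol, without overlap, against 3004 to 3268 CPM in KO saline and 2624 to 5888 CPM in KO ethanol. Most of that sum was Tubb3, at a mean of 3456 CPM in WT saline and 1327 CPM in WT ethanol. The interneuron genes Gad1 and Gad2 had higher means in WT ethanol (log2 fold change 0.92 and 1.64, unadjusted p = 0.0100 and 0.00111 by edgeR), and Snap25 and Rbfox3 stood at -0.12 and -0.10. Rbfox3 varied widely in WT saline, at a mean of 139 CPM and an SD of 180 CPM, so its value does not show an unchanged level. Slc17a7 and Neurod6 stood at -0.67 and -0.86 (unadjusted p = 0.252 and 0.183 by edgeR). Of 37 cell type markers tested, 0 passed an adjusted p of 0.05 by edgeR in any comparison. Between WT ethanol and WT saline 8 of the 37 had an unadjusted p under 0.05, where the share of all genes was 18.3%. DESeq2 called 1 of the 37 there and 2 between KO saline and WT saline, where it called 3.31% and 4.86% of all genes. Without WT saline 3 and KO ethanol 12, edgeR called 8 in each of these comparisons, where 21.5% and 25.3% of all genes passed. Tubb3, Rbfox3, Gad2, Flt1, Cdk1, C1qa and Aif1 were called in both. In whole tissue, fewer cells of a type and less RNA per cell cannot be told apart.

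RefSeq promoter sequence (GRCm38.p6) was at hand for 6 of the 9 genes, in 8 windows of 250 bases directly before an annotated start. The 3 windows printed here belong to the kinase, the cyclin and the inhibitor whose levels were lower in WT ethanol than in WT saline at an unadjusted p under 0.05. They show what short motifs precede these genes. Each reads 5′ to 3′ on the gene's strand, and capitals mark the GC box GGGCGG on either strand, a binding site of Sp1, and the E-box CACGTG, a binding site of Myc and related factors.
Cdk4, chr10:127063285-127063534, plus strand: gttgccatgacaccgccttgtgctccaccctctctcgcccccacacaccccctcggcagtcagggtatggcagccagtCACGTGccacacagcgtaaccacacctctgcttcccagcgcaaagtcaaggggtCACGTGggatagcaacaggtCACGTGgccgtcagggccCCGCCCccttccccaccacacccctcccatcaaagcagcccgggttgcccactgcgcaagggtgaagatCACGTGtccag
Ccnd3, chr17:47593217-47593466, plus strand: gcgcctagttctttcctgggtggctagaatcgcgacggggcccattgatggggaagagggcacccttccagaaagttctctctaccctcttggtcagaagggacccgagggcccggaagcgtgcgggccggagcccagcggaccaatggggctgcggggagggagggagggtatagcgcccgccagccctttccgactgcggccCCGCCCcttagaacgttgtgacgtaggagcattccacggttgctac
Cdkn2d, chr9:21291210-21291459, minus strand: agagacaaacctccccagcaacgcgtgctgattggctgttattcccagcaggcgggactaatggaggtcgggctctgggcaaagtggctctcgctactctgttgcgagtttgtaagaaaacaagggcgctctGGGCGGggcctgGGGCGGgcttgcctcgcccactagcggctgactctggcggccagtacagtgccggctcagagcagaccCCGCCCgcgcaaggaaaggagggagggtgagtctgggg
The Cdk4 window held 4 E-boxes and 1 GC box, the Ccnd3 window 1 GC box and the Cdkn2d window 3 GC boxes. At least 1 GC box stood in 32.7% and at least 1 E-box in 6.02% of 32851 windows of the same length. CCAAT on either strand occurred once in the Ccnd3 window and once in the Cdkn2d window, against a share of 33.8% of all windows. Among the 8 windows, a p53 half-site (searched by its consensus on both strands) was present once, before Cdkn2d, and 7.13% of all windows held one. Every start position was counted, both strands were searched and matches to different motifs could overlap. The Cdk4 window precedes a RefSeq start that lies a little upstream of the start in the deposited files. A match describes letters only.

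Cdk4 and Cdkn2d were the most abundant of the 9 transcripts per unit length. RPKM is by name reads per kilobase of transcript, scaled to sequencing depth, but the deposited values were not a fixed multiple of the counts. On the deposited RPKM scale the median over 12 libraries was 72.9 for Cdk4 and 55.4 for Cdkn2d. Their ranges of 38.9 to 89.2 and 43.8 to 68.5 overlapped. Cdkn1b followed at a median of 17.7 RPKM, with its highest library at 24.7 RPKM, below the lowest Cdkn2d value. The order then ran through Ccnd3 (9.51 RPKM), Ccnd2 (7.27 RPKM), Ccnd1 (4.66 RPKM), Cdkn1c (3.73 RPKM), Cdkn2c (3.00 RPKM) and Cdk6 (1.09 RPKM). From Cdkn1b down to Cdk6 the range of each gene overlapped that of its neighbour in the order. Of the 2 kinases Cdk4 was the more abundant, since its lowest library lay above the highest of Cdk6, 1.86 RPKM.

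**Figure D1:**
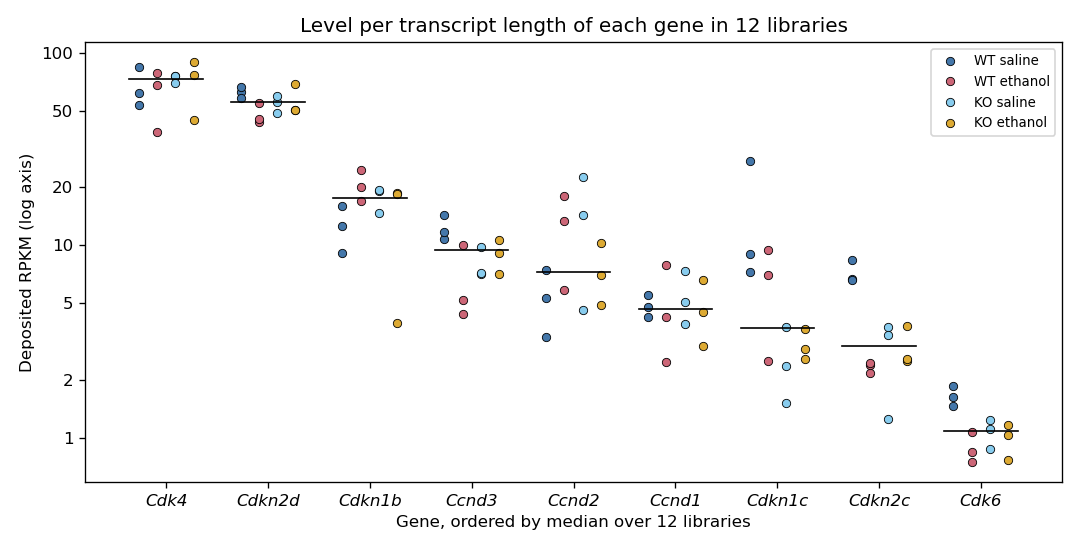
Deposited RPKM (log axis) of the 9 genes in 12 libraries, colored by group, with a bar at the median of the 12; genes run from the highest to the lowest median. Cdk4 and Cdkn2d lie between 38.9 and 89.2 RPKM, above every library of the other 7 genes.

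Across the 5 comparisons, 0 of the 9 genes passed an adjusted p of 0.05 in edgeR's quasi-likelihood test on all genes, and DESeq2 called 1, Cdkn1c between KO saline and WT saline, where it called 4.86% of all genes, and 0 of the 9 between WT ethanol and WT saline, where it called 3.31%. By edgeR, 0.0746% of all 14739 genes passed for WT ethanol against WT saline and 0.0543% for KO saline against WT saline. For KO ethanol against KO saline, KO ethanol against WT ethanol and the interaction of genotype and ethanol the share was 0%. At an adjusted p under 0.30, a looser level used in the study, 5 of the 9 stood out between WT ethanol and WT saline (Ccnd2 higher; Ccnd3, Cdk4, Cdkn2c and Cdkn2d lower), where the share of all genes was 22.5%. Between KO saline and WT saline 3 of the 9 did (Ccnd2 higher; Cdkn1c and Cdkn2d lower), where the share was 25.8%, and in the interaction Ccnd2 alone did, where it was 11.1%. At an unadjusted p under 0.05 the counts were 4 of 9 against 18.3% of all genes for WT ethanol versus WT saline, 3 of 9 against 19.6% for KO saline versus WT saline, and 2 of 9 against 15.2% for the interaction. For KO ethanol versus KO saline and KO ethanol versus WT ethanol they were 0 of 9, against 3.15% and 3.24% of all genes. WT saline is the reference of both comparisons in which members stood out, so these share their control libraries. The median log2 fold change of the 9 was -0.76 between WT ethanol and WT saline, where that of all genes was 0.06, and -0.55 between KO saline and WT saline, where that of all genes was 0.04.

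**Figure D2:**
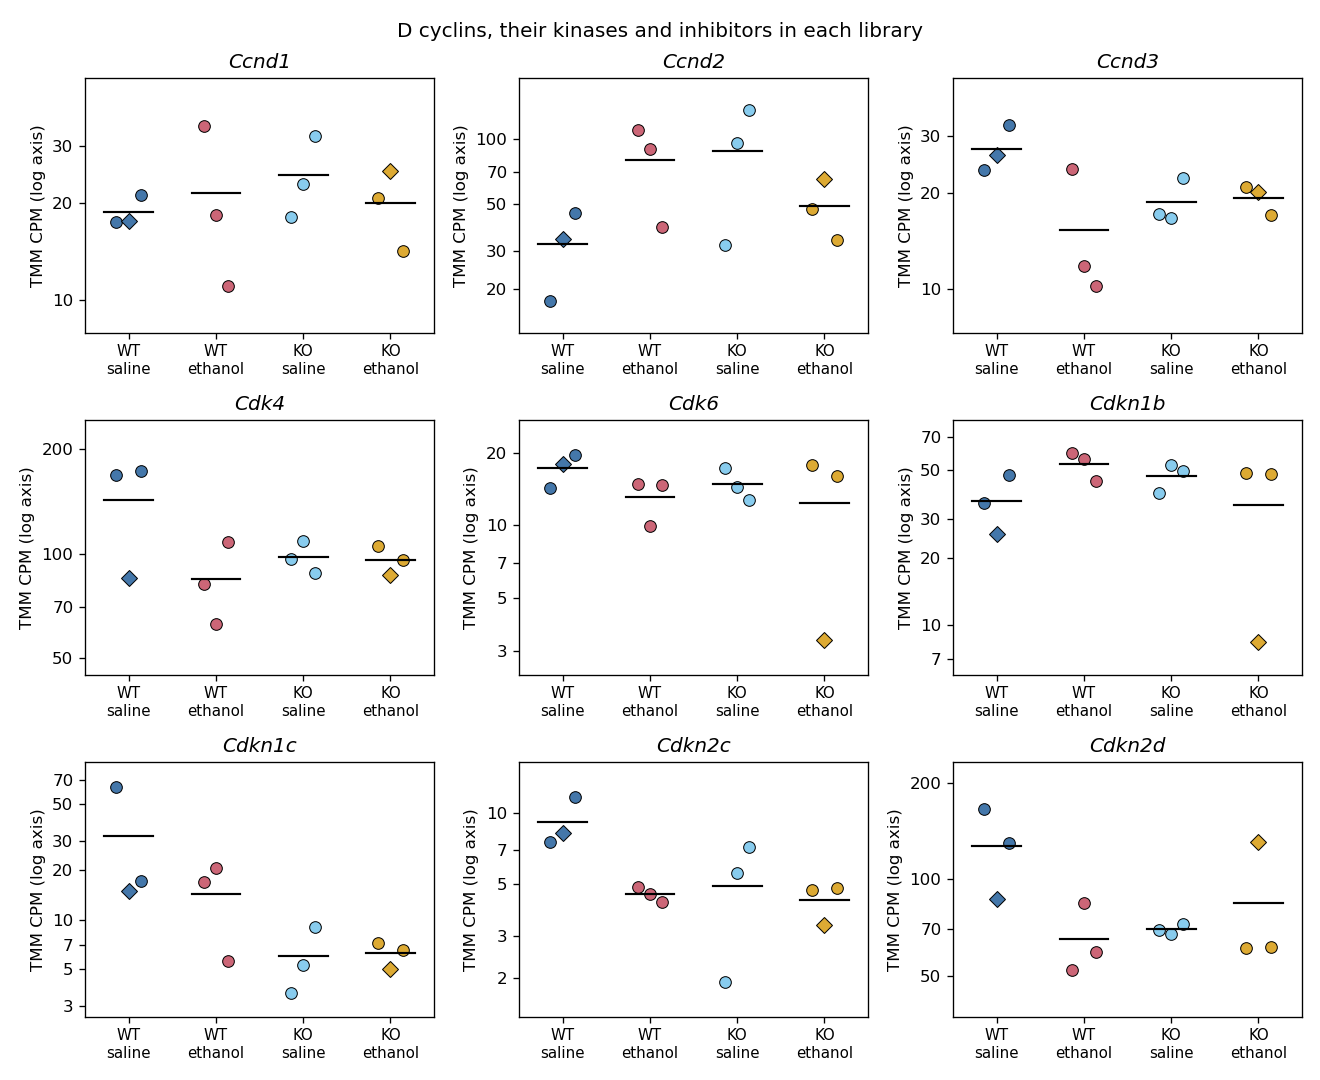
TMM-scaled CPM (log axis) of each gene in the 12 libraries, 3 per group, with a bar at the group mean; diamonds are WT saline 3 and KO ethanol 12, the 2 shallowest libraries. Cdkn2d and Cdkn2c do not overlap between WT saline and WT ethanol. Ccnd3, Cdkn1c, Cdkn2c and Cdkn2d do not overlap between WT saline and KO saline. The share of all genes without overlap is not given here.

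Ccnd2 (chr6:127125709-127151048, mm10), a D cyclin known for its role in cortical progenitors, had the widest swing between groups among the D cyclins. It was counted at 17.6, 34.4 and 45.4 CPM in WT saline 1, 3 and 13. WT ethanol 4, 5 and 14 held 110.0, 89.5 and 39.1 CPM. KO saline 7, 8 and 9 held 32.2, 96.0 and 136 CPM, and KO ethanol 10, 12 and 18 held 47.3, 65.2 and 33.8 CPM. The 2 highest libraries of WT ethanol and of KO saline lay above every WT saline library, and the lowest library of each lay within the WT saline range. Ccnd2 was 2.45-fold higher in WT ethanol than in WT saline (log2 fold change 1.29 ± 0.54 SE, n = 3 per group, unadjusted p = 0.0302 and adjusted p = 0.235 by edgeR). KO saline exceeded WT saline by 2.71-fold (log2 1.44 ± 0.54 SE, adjusted p = 0.191 by edgeR). The ethanol effect on Ccnd2 differed between the genotypes by -2.18 ± 0.76 on the log2 scale (unadjusted p = 0.0123, adjusted p = 0.252 by edgeR), with a positive effect in WT mice and a log2 fold change of -0.88 ± 0.54 in KO mice. Without WT saline 1 the WT ethanol difference was 0.95 (unadjusted p = 0.118 by edgeR), and without WT ethanol 4 it was 0.97 (unadjusted p = 0.118 by edgeR). Leaving out WT saline 3 or WT ethanol 5 gave 1.26 and 1.20, with an unadjusted p of 0.0559 and 0.0681 by edgeR. The KO saline difference was 0.96 without KO saline 9 (unadjusted p = 0.109 by edgeR) and 1.12 without WT saline 1 (unadjusted p = 0.0714 by edgeR). The gene overlaps 9330179D12Rik, and whether counting used the strand is not given in the sources used here, so reads in such an overlap cannot be told apart.

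The Ccnd2 transcript is long, at 6330 bases, and length went with direction in these libraries. Among genes at an unadjusted p under 0.05 between WT ethanol and WT saline, the 1453 higher genes with a known length had a median length of 4435 bases and the 1212 lower ones 1278 bases. With the trends of each library on transcript length and GC content removed, the Ccnd2 log2 fold change was 0.53 (unadjusted p = 0.366 by edgeR) between WT ethanol and WT saline, 0.61 (unadjusted p = 0.306 by edgeR) between KO saline and WT saline, and -0.71 (unadjusted p = 0.402 by edgeR) in the interaction. With these trends removed, the median log2 fold change of all genes was -0.16 in both comparisons with WT saline and 0.26 in the interaction. All values given here with the trends removed are to be read against those medians. Across the 12 libraries, log2 Ccnd2 and the log2 sum of 4 oligodendrocyte precursor markers correlated at r = 0.78. This was the highest of the cell type lists. Among the others r was 0.53 for mural cells, 0.50 for astrocytes, 0.22 for dividing cells and -0.22 for neurons. These values are a description over libraries that differ in depth. The precursor sum was 147 to 243 CPM in WT saline, 183 to 352 CPM in WT ethanol, 178 to 365 CPM in KO saline and 191 to 219 CPM in KO ethanol, and 0 of its 4 genes were at 0 in any library. Of the 4, Olig1 had log2 fold changes of -0.33 in WT ethanol and -0.28 in KO saline, each against WT saline. In the same comparisons Pdgfra had 0.73 and 0.69, Cspg4 0.72 and 0.65, and Olig2 0.62 and 1.21. The 4 dividing-cell markers summed to 30.8 to 94.9 CPM in WT saline, 40.8 to 64.1 CPM in WT ethanol, 33.1 to 129 CPM in KO saline and 23.4 to 47.8 CPM in KO ethanol. They did not move together: in KO saline against WT saline Mki67 and Top2a had log2 fold changes of 2.04 and 1.81, Cdk1 -1.15 and Ccnb1 -0.44. The part of these cells in the Ccnd2 values was not tested.

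Ccnd3, a D cyclin known from differentiating muscle cells and lymphocytes, had its higher levels in WT saline. Its levels were 23.5, 26.2 and 32.6 CPM in WT saline 1, 3 and 13 and 23.7, 11.8 and 10.2 CPM in WT ethanol 4, 5 and 14. WT ethanol 4 was inside the WT saline range, and WT ethanol 5 and 14 were below it. KO saline held 17.1, 16.6 and 22.3 CPM, all under the lowest WT saline library, and KO ethanol 20.8, 20.0 and 17.0 CPM. The log2 fold change was -0.84 ± 0.38 (SE) for WT ethanol against WT saline (unadjusted p = 0.0442, adjusted p = 0.260 by edgeR) and -0.56 ± 0.38 for KO saline against WT saline (unadjusted p = 0.163 by edgeR). For WT ethanol, leaving out WT saline 13, WT ethanol 5 or WT ethanol 14 gave -0.69 each time, with an unadjusted p of 0.130, 0.147 and 0.121 by edgeR. The unadjusted p was under 0.05 in 8 of 12 fits that each lacked 1 library. Most Ccnd3 counts, 83.6% to 96.0% in every library, were assigned to transcript NM_007632 (chr17:47593467-47599688, mm10). The gene overlaps Bysl.

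Ccnd1 (chr7:144929931-144939925, mm10), a D cyclin induced by growth factors, did not separate the groups and overlaps Mir3962. Its CPM ranges were 17.4 to 21.2 in WT saline, 11.1 to 34.7 in WT ethanol, 18.1 to 32.3 in KO saline and 14.1 to 25.1 in KO ethanol. The WT saline libraries lay inside the WT ethanol range, and the fitted differences ran from -0.33 ± 0.44 to 0.38 ± 0.43 on the log2 scale over the 4 comparisons of groups.

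Because scaling between libraries affects each of these values, the division of the D cyclin level was also taken within each library, as the share of every cyclin in the summed counts per kilobase. Ccnd3 held the largest share in WT saline, 58.0% ± 2.93 (SD, n = 3), and Ccnd2 held 20.8% ± 5.53. In WT ethanol Ccnd2 held 48.4% ± 7.21 and Ccnd3 30.2% ± 6.10. KO saline had 43.6% ± 13.9 for Ccnd2 and 33.9% ± 10.8 for Ccnd3, and KO ethanol 33.4% ± 4.13 and 43.4% ± 5.69. The Ccnd2 share was 14.4% to 24.6% in WT saline libraries and 27.5% to 56.6% in the other 9, so that WT saline did not overlap with any other group. Ccnd1 held between 19.4% and 26.1% in every library. The difference in Ccnd2 share was 27.6 percentage points for WT ethanol against WT saline and 22.8 for KO saline against WT saline (exact permutation test, two-sided, p = 0.1 each, the smallest that 3 against 3 libraries can give, and adjusted p = 0.2 over 12 such tests). For KO ethanol against WT ethanol it was -15.0 (exact permutation p = 0.1), and for KO ethanol against KO saline -10.2 (exact permutation p = 0.4). The Ccnd3 share differed by -27.8 and -24.1 percentage points in the comparisons with WT saline (exact permutation p = 0.1 each). The shares remove differences in scaling but not those in transcript length, and this measure was added after seeing the data.

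**Figure D3:**
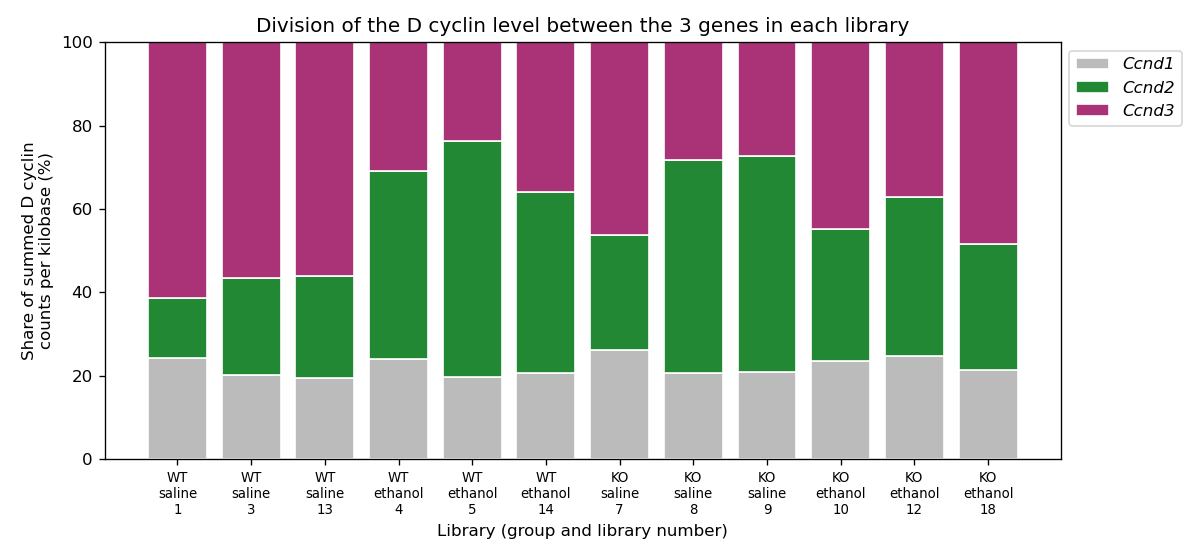
Share of Ccnd1, Ccnd2 and Ccnd3 in the summed D cyclin counts per kilobase of each library (percent, stacked to 100). Ccnd3 takes 56.1% to 61.4% in the WT saline libraries and 23.7% to 48.4% in the other 9.

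Cdk4, the more abundant of the 2 kinase transcripts (chr10:127063603-127067282, mm10), was counted at 169, 85.3 and 173 CPM in WT saline 1, 3 and 13. WT ethanol 4, 5 and 14 held 81.9, 62.6 and 108 CPM. KO saline libraries held 96.5, 108 and 87.9 CPM, and KO ethanol libraries 105, 86.9 and 95.6 CPM. WT saline 1 and 13 lay above every other library, whereas WT saline 3 lay among the libraries of the other groups. The log2 fold change was -0.76 ± 0.35 (SE) for WT ethanol against WT saline (1.70-fold lower, unadjusted p = 0.0438, adjusted p = 0.259 by edgeR) and -0.55 ± 0.34 for KO saline against WT saline (adjusted p = 0.380 by edgeR). In KO mice ethanol and saline differed by -0.02 ± 0.34. Leaving out both shallow libraries, WT saline 3 and KO ethanol 12, gave -1.10 ± 0.29 for WT ethanol (adjusted p = 0.0225 by edgeR) and -0.88 ± 0.29 for KO saline (adjusted p = 0.0448 by edgeR). Without those 2 libraries 21.5% of all genes passed an adjusted p of 0.05 for WT ethanol and 25.3% for KO saline, each against WT saline. Leaving out 1 of WT saline 1, WT saline 13, WT ethanol 4 or WT ethanol 5 instead gave -0.65, -0.60, -0.76 and -0.59 for WT ethanol, with an unadjusted p of 0.103, 0.140, 0.0932 and 0.162 by edgeR. Of 12 fits that each lacked 1 library, 4 had an unadjusted p under 0.05 for that comparison. On the deposited RPKM scale the group means were 66.6 ± 15.8 in WT saline and 61.8 ± 20.5 in WT ethanol (SD, n = 3), and the difference of log2(RPKM + 1) was -0.14 (unadjusted p = 0.679 by limma). For KO saline against WT saline that scale turned the sign, at 0.17 (unadjusted p = 0.609 by limma).

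Deposited RPKM values were not a fixed multiple of the counts. The ratio of a gene's deposited RPKM to the RPKM expected from its counts, transcript length and library total was 1.17 to 1.48 for Cdk4, 0.856 to 1.04 for Cdkn2d and 0.765 to 2.14 for Ccnd2 over the 12 libraries. WT saline 1 held the highest Ccnd2 ratio. Differences on the count and RPKM scales therefore need not match.

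Cdk6, the other D cyclin kinase (chr5:3343893-3531005, mm10), was the least abundant member per unit length. Its levels were 14.3 to 19.5 CPM in WT saline, 9.91 to 14.8 CPM in WT ethanol, 12.7 to 17.4 CPM in KO saline and 3.34 to 17.7 CPM in KO ethanol. The low value came from KO ethanol 12, where 2 reads were counted. The groups overlapped on this scale, and the log2 fold change of -0.39 ± 0.44 in WT ethanol and -0.22 ± 0.44 in KO saline, each against WT saline, lay within 1 SE of 0. Its transcript, at 11525 bases, is the longest of the set, and with the length and GC trends removed the values were -1.33 ± 0.36 (unadjusted p = 0.00253, adjusted p = 0.156 by edgeR) and -1.16 ± 0.36 (adjusted p = 0.227 by edgeR). With the trends removed, the median of all genes was -0.16 in both comparisons. Deposited RPKM of Cdk6 was 1.47 to 1.86 in WT saline and 0.751 to 1.24 in the other 9 libraries, without overlap. The ratio of that RPKM to the RPKM expected from counts also differed between groups. It was 1.06 to 2.10 in WT saline, 0.572 to 0.878 in WT ethanol, 0.706 to 0.884 in KO saline and 0.615 to 3.18 in KO ethanol. On the CPM scale the groups overlapped.

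Cdkn2d (chr9:21288464-21291209, mm10), encoding p19INK4d, an inhibitor that neurons keep after they stop dividing, was the most abundant inhibitor. It was counted at 165, 86.8 and 129 CPM in WT saline 1, 3 and 13 and at 52.2, 84.1 and 59.5 CPM in WT ethanol 4, 5 and 14. KO saline 7, 8 and 9 stood close together at 69.2, 67.6 and 72.6 CPM. KO ethanol 10 and 18 held 61.0 and 61.3 CPM and KO ethanol 12 held 130 CPM. Every WT saline library lay above every WT ethanol and KO saline library, although WT saline 3 exceeded WT ethanol 5 only narrowly. Cdkn2d was 1.95-fold lower in WT ethanol than in WT saline (log2 fold change -0.96 ± 0.38 SE, unadjusted p = 0.0222, adjusted p = 0.220 by edgeR) and 1.83-fold lower in KO saline (log2 -0.87 ± 0.38, adjusted p = 0.230 by edgeR). Its ethanol effect differed between genotypes by 1.21 ± 0.53 (unadjusted p = 0.0396, adjusted p = 0.312 by edgeR), and without KO ethanol 12 by 0.77 (unadjusted p = 0.120 by edgeR). Leaving out WT saline 1 gave -0.76 for WT ethanol (unadjusted p = 0.0822 by edgeR) and -0.65 for KO saline (unadjusted p = 0.130 by edgeR). Of 12 fits that each lacked 1 library, 9 had an unadjusted p under 0.05 for WT ethanol and 7 for KO saline. Without both shallow libraries the log2 fold change was -1.25 ± 0.29 in WT ethanol (adjusted p = 0.0137 by edgeR) and -1.15 ± 0.29 in KO saline (adjusted p = 0.0151 by edgeR). Cdkn2d is a short transcript, at 1423 bases, and with the length and GC trends removed the log2 fold change was -0.74 in WT ethanol (unadjusted p = 0.0646, adjusted p = 0.328 by edgeR) and -0.49 in KO saline (unadjusted p = 0.202, adjusted p = 0.517 by edgeR). The sum of 7 neuronal markers, most of it Tubb3, was highest in the 3 WT saline libraries and in KO ethanol 12 (5888 CPM), whereas Gad1 and Gad2 ran opposite to Cdkn2d in WT ethanol and Snap25 and Rbfox3 overlapped between the groups. Slc17a7 and Neurod6 had lower means in WT ethanol, as Cdkn2d did, and also overlapped between the groups. The part of neurons in the Cdkn2d values was not tested. On the RPKM scale the Cdkn2d difference in WT ethanol was -0.38 (unadjusted p = 0.129 by limma).

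Cdkn2c (chr4:109660876-109665372, mm10), encoding p18INK4c, which restrains the division of progenitors, was scarce. Its levels were 7.53, 8.22 and 11.7 CPM in WT saline 1, 3 and 13, and 4.86, 4.54 and 4.21 CPM in WT ethanol 4, 5 and 14. KO saline held 1.92, 5.56 and 7.19 CPM, and KO ethanol 4.73, 3.34 and 4.82 CPM. All 3 WT saline libraries lay above the other 9. The log2 fold change was -1.02 ± 0.50 (SE) for WT ethanol (unadjusted p = 0.0610, adjusted p = 0.290 by edgeR) and -0.92 ± 0.50 for KO saline (adjusted p = 0.314 by edgeR), and it rested on 16 to 158 counts per WT saline library and 24 to 86 per WT ethanol library. With length and GC trends removed it was -0.56 (unadjusted p = 0.362 by edgeR) for WT ethanol and -0.42 for KO saline.

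Cdkn1c, encoding p57KIP2 from an imprinted locus (chr7:143458339-143461050, mm10), had the largest difference of the set. WT saline 1, 3 and 13 held 64.1, 14.9 and 17.2 CPM, and KO saline 7, 8 and 9 held 3.61, 5.33 and 9.03 CPM. In WT ethanol 4, 5 and 14 it stood at 17.0, 20.6 and 5.62 CPM, and in KO ethanol 10, 12 and 18 at 7.18, 5.01 and 6.59 CPM. All 6 KO libraries lay below 5 of the 6 WT libraries in a range of 3.61 to 9.03 CPM, and WT ethanol 14 was inside that range. Cdkn1c was 5.39-fold lower in KO saline than in WT saline (log2 fold change -2.43 ± 0.63 SE, unadjusted p = 0.00157, adjusted p = 0.160 by edgeR), which ranked it 144th of 14739 genes by p. The same test in DESeq2 gave -2.48 (adjusted p = 0.00945), and leaving out both shallow libraries gave -2.84 ± 0.62 (adjusted p = 0.00879 by edgeR). Without WT saline 3 alone the value was -2.79 (adjusted p = 0.0207 by edgeR). In that fit 2177 of 14996 genes passed an adjusted p of 0.05, against 8 of 14739 with all libraries. Without WT saline 1, which held the highest level, it was -1.44 (unadjusted p = 0.0190, adjusted p = 0.415 by edgeR). KO ethanol against WT ethanol gave -1.15 ± 0.63 (unadjusted p = 0.0903, adjusted p = 0.982 by edgeR). For WT ethanol against WT saline the log2 fold change was -1.15 ± 0.60 (adjusted p = 0.310 by edgeR), and without WT saline 1 it was -0.19 (unadjusted p = 0.736 by edgeR). Choroid plexus markers, which mark tissue outside the cortex, summed to 3.08 to 118 CPM in WT saline, 20.4 to 4942 CPM in WT ethanol, 24.3 to 2233 CPM in KO saline and 0 to 2201 CPM in KO ethanol, and the library with the highest Cdkn1c, WT saline 1, held 27.5 CPM. Most of the choroid plexus sum was Ttr, at a mean of 1662 CPM in WT ethanol against 6.61 for Folr1 and 4.09 for Kcnj13. Against WT saline, the log2 fold changes in WT ethanol were 5.29 for Ttr, 0.99 for Folr1 and -0.24 for Kcnj13. In KO saline they were 4.37, 0.63 and -0.94. The part of choroid plexus tissue in the Cdkn1c values was not tested.

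Cdkn1b, encoding p27KIP1, an inhibitor that accumulates in cells leaving the cycle (chr6:134920401-134925525, mm10), did not differ beyond its spread. It stood at 35.6, 25.7 and 47.5 CPM in WT saline, 59.7, 55.7 and 44.4 CPM in WT ethanol, 39.4, 52.7 and 49.3 CPM in KO saline, and 48.2, 8.35 and 47.9 CPM in KO ethanol. The 8.35 CPM of KO ethanol 12 came from 5 counts. The log2 fold change was 0.55 ± 0.46 for WT ethanol and 0.37 ± 0.46 for KO saline, each against WT saline, and -0.36 ± 0.46 for KO ethanol against KO saline.

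**Figure D4:**
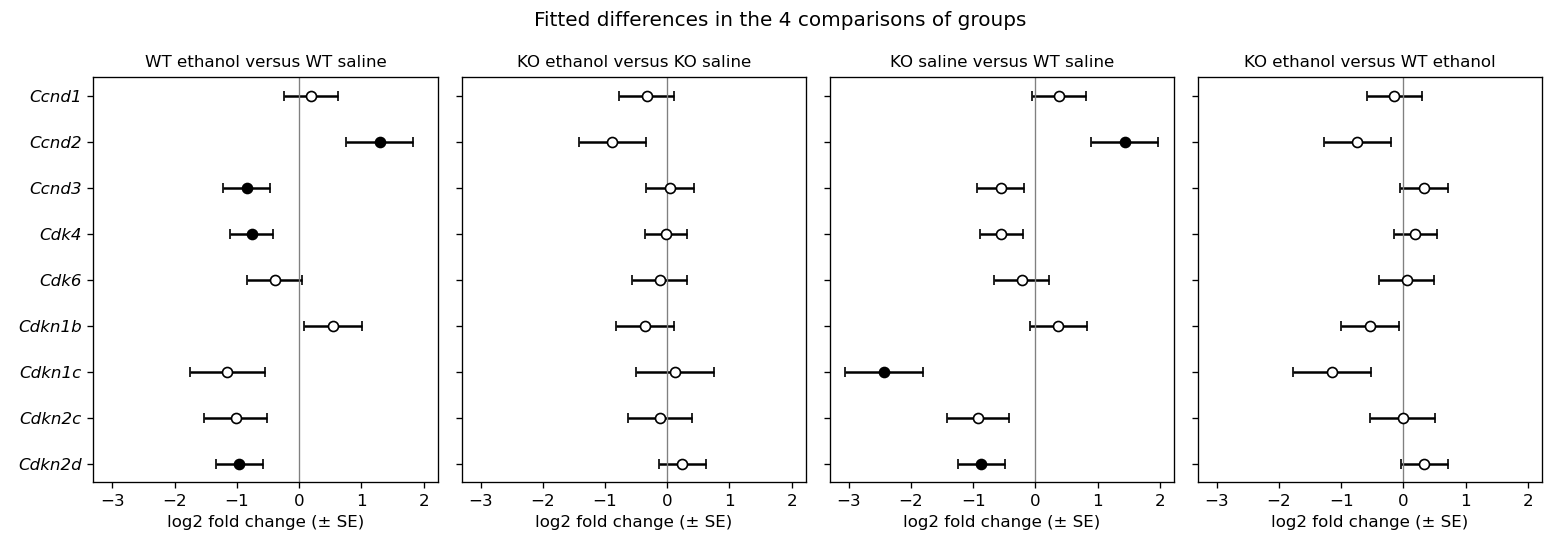
Log2 fold change with its standard error (edgeR, n = 3 per group) of the 9 genes in the 4 comparisons of groups; filled points have an unadjusted p under 0.05. Filled points are 4 in WT ethanol versus WT saline, 3 in KO saline versus WT saline and 0 in the other 2 panels.

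Several members have more than 1 transcript, and the division of counts between them could not be read in every library. NM_001161624 took 27.5% of Cdkn1c counts in WT saline 3, WT ethanol 14, KO saline 7 and KO ethanol 12, equal to 3 decimals, and NM_001081635 took 9.04% of Ccnd3 counts in WT saline 3, WT ethanol 14 and KO ethanol 12. Cdkn2c transcript NM_001301368 was at 0 in WT saline 1, WT saline 3 and KO ethanol 12 and held 22.6% to 75.0% in the other 9. Taken alone, the other Cdkn2c transcript, NM_007671, had a log2 fold change of -2.07 ± 0.60 in WT ethanol against WT saline (unadjusted p = 0.00378, adjusted p = 0.145 by edgeR), against -1.02 for the sum. For Cdkn1c, NM_009876 had a log2 fold change of -3.28 ± 0.82 in KO saline against WT saline (adjusted p = 0.118 by edgeR) and NM_001161624 one of -1.73 ± 0.80 (adjusted p = 0.259 by edgeR). Counts summed over transcripts do not depend on this division. Sums of RPKM or of counts per kilobase do, since each transcript is scaled by its own length.

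Around these genes, 33 other genes of G1 control were listed, of which 32 were tested, from retinoblastoma and E2F genes to kinase activators, turnover factors and transcription factors. By edgeR 0 of the 32 passed an adjusted p of 0.05 in any comparison, whereas DESeq2 called Foxo3 in WT ethanol and Dmtf1 and Rbl2 in KO saline, each against WT saline. Without WT saline 3 and KO ethanol 12, edgeR called the same 4 genes, Ambra1, Cks1b, Dmtf1 and Rbl2, in each of those comparisons, where 21.5% and 25.3% of all genes were called. At an adjusted p under 0.30, 4 of 32 did between WT ethanol and WT saline (3 higher, 1 lower), against 22.5% of all genes, and 4 of 32 between KO saline and WT saline (3 higher, 1 lower), against 25.8%. The interaction had 3 of 32 (all lower), against 11.1%, and the other 2 comparisons 0 of 32. These shares of 12.5%, 12.5% and 9.38% lay below those of all genes. The counts were also 4, 4 and 3 at an unadjusted p under 0.05, where the shares of all genes were 18.3%, 19.6% and 15.2%. The median log2 fold change of the 32 was -0.02 in WT ethanol and -0.09 in KO saline, each against WT saline.

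Dmtf1, encoding a transcription factor that binds D cyclins, was at a log2 fold change of 1.21 ± 0.37 in WT ethanol (adjusted p = 0.189 by edgeR) and 1.28 ± 0.37 in KO saline (adjusted p = 0.176 by edgeR). Rbl2, which encodes the retinoblastoma relative p130, stood at 1.59 ± 0.54 and 1.64 ± 0.54. Foxo3, encoding a factor that can activate Cdkn1b, stood at 2.25 ± 0.71 and 1.70 ± 0.71, from a WT saline mean of 1.86 CPM. Cks1b, whose product helps the ubiquitin ligase SCF-Skp2 to destroy p27, had -1.34 ± 0.50 and -1.22 ± 0.50. In the interaction Rbl2 had -2.10 ± 0.75, Foxo3 -2.62 ± 0.99 and Dmtf1 -1.32 ± 0.52 (adjusted p = 0.259, 0.266 and 0.273 by edgeR).

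Genes whose pattern over the 12 libraries was most like that of each D cyclin were found among 10061 genes with a mean of at least 10 CPM, by Pearson's r of log2 CPM. For Ccnd2 these were Rbsn, St8sia1 and Ubash3b, with r = 0.92 for each. Ccnd3 was nearest to Ccdc184 (r = 0.90), Adra2a (r = 0.88) and Igfbp4 (r = 0.87), and Ccnd1 to Pgpep1 (r = 0.88), Tril (r = 0.85) and S1pr3 (r = 0.84). Within the set, Ccnd1 and Ccnd2 had r = 0.71, Cdk6 and Cdkn1b r = 0.76 and Cdkn1c and Cdkn2c r = 0.62, whereas Ccnd2 and Cdk4 had r = -0.56. The libraries share scaling and group structure, and Cdk6 and Cdkn1b are both lowest in KO ethanol 12, so these values are a description of 12 libraries.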

How the data were processed

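Stranded total RNA-Seq libraries of P7 male somatosensory cortex were analysed, 3 for each of 4 groups. The authors quality-filtered single-end reads and aligned them to mm10 (TopHat, Bowtie2). Partek then quantified the RefSeq annotation (tool versions not given in the sources used here). They deposited an expected count per transcript, which need not be whole, and an RPKM value per transcript, whose sorted values nearly coincide between libraries. These deposited counts were summed per symbol, rounded and filtered with filterByExpr, leaving 14739 of 24452 symbols. Tests were made with edgeR 4.0.16 (TMM, quasi-likelihood, 1 mean per group, all 12 libraries) in R 4.3.3, with Benjamini-Hochberg adjustment over all genes tested. A gene passed at an adjusted p under 0.05, and the study's level of 0.30 is given beside it. The study tested RPKM in a two-way analysis of variance with treatment and genotype, and the contrasts here take the same factors to the counts. Alternatives were DESeq2 1.42.0, limma 3.58.1 on log2(RPKM + 1) and log2(RPKM + 0.1), other scalings and filters, transcript length and GC trends (natural splines with 5 degrees of freedom, lengths from GENCODE for 98.6% of the genes tested), and libraries left out.

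The 9 genes, the lists and the tests were chosen with earlier results of these data known. Named from the list of other G1 genes were those with the smallest unadjusted p, at most 6 in a comparison. The fits were tested on simulated data. Coordinates are mm10, from the deposited files, 1-based, and promoter windows and their sequences are from RefSeq GRCm38.p6, the same assembly.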

Additional observations from a re-analysis of the deposited data

Results flagged for a closer look

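In edgeR's interaction term, the ethanol effect on 2 of the 9 genes differed between the genotypes at an unadjusted p under 0.05. Over all genes tested, the share at that level was 15.2%. Neither of the 2 genes passed an adjusted p of 0.05. For Ccnd2 the difference, KO minus WT, was -2.18 on the log2 scale (adjusted p = 0.252), and it kept its sign and an unadjusted p of at most 0.0495 in each of 12 fits that lacked 1 library. With length and GC trends removed it was -0.71 (unadjusted p = 0.402). For Cdkn2d it was 1.21 (adjusted p = 0.312), and its unadjusted p was under 0.05 in 4 of those 12 fits, not in the one without KO ethanol 12. With length and GC trends removed it was 0.71 (unadjusted p = 0.199 by edgeR). The median of all genes for the interaction was 0.26 with those trends removed.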

How the results depend on the processing

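No paired analysis was made, since the labels pair no libraries between groups. The litter of each pup is not given in the sources used here. With edgeR at an adjusted p under 0.05, the count of 0 members became 2 (Cdk4 and Cdkn2d) for WT ethanol versus WT saline and 3 (with Cdkn1c) for KO saline versus WT saline without the 2 libraries whose names open with L, and 4 and 2 when length and GC trends were removed as well, a setting chosen after seeing the data. DESeq2 gave 1 (Cdkn1c) for KO saline versus WT saline, and leaving out 1 library gave 0 to 1.

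At an adjusted p under 0.30, the 5 members of WT ethanol versus WT saline became 1 with library size alone, 2 with at least 1 count in any library, 2 of 5 tested with at least 10 counts in every library, 1 with log2(RPKM + 1), 1 with log2(RPKM + 0.1), 0 with only the groups compared, and 0 to 6 with 1 library left out. With length and GC trends removed the count was 4, but of the 5 it held only Ccnd3 and Cdk4, and Cdk6 and Cdkn1c were added. For KO saline versus WT saline that setting gave 2, Cdkn1c and Cdk6, without Ccnd2 and Cdkn2d. The 3 members of KO saline versus WT saline became 0 with log2(RPKM + 0.1), 5 with the name letter as a covariate, 6 without the L libraries, 5 with trends removed as well, and 0 to 6 with 1 library left out. The 1 member of the interaction became 2 with DESeq2, 2 with the count minimum of 10, 2 with the most abundant transcript, 0 with either RPKM setting, 0 with the name letter, 4 without the L libraries, 0 with trends removed, 2 with trends and L libraries removed, and 0 to 5 with 1 library left out. Counts over all genes at that level moved too. WT ethanol versus WT saline had 3310 of 14739, 191 with log2(RPKM + 0.1) and 39 of 14006 with only the groups compared. KO saline versus WT saline had 3799 of 14739, 86 with log2(RPKM + 0.1) and 4026 with the name letter. Without the L libraries it had 8435 of 14967, and 8087 with trends removed as well. The interaction had 1632, 4322 without the L libraries and 0 with the name letter. The cause was not tested. Of all genes, 11, 8 and 0 passed an adjusted p of 0.05 for WT ethanol versus WT saline, KO saline versus WT saline and the interaction; DESeq2 called 488, 717 and 255, edgeR without the L libraries 3220, 3782 and 10, with trends removed as well 3142, 3450 and 87, with trends removed alone 7, 12 and 0, with at least 1 count in any library 21, 12 and 7, and with library size alone 2, 4 and 0.

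Scaling by library size alone moved the median of all genes to 0.49 in both comparisons with WT saline. At an adjusted p under 0.30, higher genes then made up 87.6% in place of 53.7% for WT ethanol and 83.2% in place of 48.0% for KO saline. Relative to that median, Cdk4 in WT ethanol was at -0.74, Cdkn2d at -0.96 and Ccnd2 at 1.16. Removing length and GC trends moved the median of all genes to -0.16 in both comparisons with WT saline. At an adjusted p under 0.30, higher genes then made up 39.8% for WT ethanol and 37.6% for KO saline. Of 213 alternatives to the 9 log2 fold changes at an unadjusted p under 0.05, 0 changed sign and 72 no longer had that p. Of the 36 other values, 19 changed sign under some alternative, 0 of them at that p. The 2 to 5 counts for Cdk6, Cdkn1b, Cdkn1c and Cdkn2c in KO ethanol 12 limit what can be said of KO ethanol.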
